A study of Drosophila melanogaster with 10 samples.

Results

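The aminoacyl-tRNA synthetase genes were taken as every gene whose symbol in the deposited tables begins with Aats-. There were 21 such genes among 13995, and all 21 are described here. RNA had been sequenced from whole male third-instar larvae of Drosophila melanogaster kept at 25 °C. The 5 genotypes had 2 libraries each. The control was y w, a strain with the yellow and white marker mutations. The other 4 genotypes all carried the allele atf3[76] in the y w background, and they are written by what they add to it. The group atf3[76] had nothing further, foxo/+ had 1 copy of dfoxo[25J13], rel/+ had 1 copy of rel[E20], and atf3[A]/+ had 1 copy of atf3[A]. The labels give no lesion for any allele and leave atf3[A] unexplained. Both libraries of each genotype are labelled as biological replicates, and whether their larvae were reared separately is not stated. A p-value here rests on the spread between the 2 libraries of a genotype, pooled over the genotypes in the fit and moderated across genes. That spread may be technical. The study asked how RNA levels in the 4 atf3[76] genotypes differed from y w.

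Aminoacyl-tRNA synthetases attach each amino acid to its own tRNA, the step that fixes the genetic code in translation. They fall into class I and class II, which differ in the fold of the catalytic domain. For many amino acids animals use separate enzymes for the cytoplasm and for the mitochondria, all encoded in the nucleus. In mammals several cytoplasmic synthetase genes are targets of ATF4, a stress-response factor of the same basic leucine zipper superfamily as ATF3.

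Of the 21 genes, 15 were counted as cytoplasmic and 6 as mitochondrial by their current gene symbols. Genes without the ending -m were counted as cytoplasmic, whether or not their enzyme also serves the mitochondria. The deposited symbol marks the compartment only for Aats-ala-m, the mitochondrial alanyl-tRNA synthetase. The other 5 mitochondrial genes are listed as Aats-leu, Aats-met, Aats-phe, Aats-pro and Aats-ser and are now named LeuRS-m, MetRS-m, PheRS-m, ProRS-m and SerRS-m. By amino acid, 9 genes belong to class I and 11 to class II, and Aats-glupro, which charges both glutamate and proline, holds a domain of each. The genes were spread over the chromosome arms, with 3 on 2L, 4 on 2R, 6 on 3L, 5 on 3R and 3 on X. Aats-ala-m, Aats-cys, Aats-gln, Aats-pro and Aats-ser overlap another gene in position, and because strand is not stated their values are uncertain.

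Levels are FPKM, fragments counted per length of transcript and per total of mapped fragments, as deposited. The lowest value in every library is 1, and 3 of 6 body wall muscle markers were listed at 1 in all 10 libraries, so a value of 1 does not show that RNA was absent. Markers of fat body, midgut, muscle and salivary gland were abundant and both roX RNAs of male dosage compensation were above 1 in every library. The summed FPKM of all genes ran from 268803 in atf3[A]/+ replicate 2 to 376511 in y w replicate 1. Relative depth, read from the steps between low values, was 0.515 for replicate 1 of y w and 0.644 for replicate 1 of atf3[76], against 0.951 to 1.02 in 7 other libraries. The steps gave no value for foxo/+ replicate 2. Of genes whose median elsewhere was 10 or more, the share listed at 1 was 3.84% and 4.54% in those shallow libraries and 0.136% to 1.27% in the others. Atf3 itself, listed as A3-3, was at 3.28 and 4.14 FPKM in y w, at 6.09 and 13.7 with atf3[76] alone and at 9.24 to 15.1 in the other 6 libraries. Rel, which overlaps Nmdmc, was at 16.7 and 13.3 FPKM in rel/+ and 21.4 and 20.97 in atf3[76]. The gene foxo was at 8.69 and 6.86 FPKM in foxo/+ and 4.30 and 8.73 in atf3[76]. No lesion is given, so these levels do not check the labels.

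The cytoplasmic genes stood above the mitochondrial ones. The mean over 10 libraries had a median of 17.1 FPKM among the 15 cytoplasmic genes, from 10.5 in Aats-val to 37.0 in Aats-asp. Among the 6 mitochondrial genes the median was 4.63 FPKM, from 3.64 in Aats-pro to 14.5 in Aats-phe. Aats-phe was the only mitochondrial gene whose mean reached the cytoplasmic range. In each library the cytoplasmic median was between 3.33 and 4.17 times the mitochondrial median.

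The 3 most abundant were Aats-asp, Aats-thr and Aats-asn, which charge aspartate, threonine and asparagine in the cytoplasm. Aats-asp (2R, 8767823 to 8770675, release 5 coordinates of the deposited tables) was at 52.7 and 32.3 FPKM for y w, 45.1 and 34.8 for atf3[76], 33.7 and 36.6 for foxo/+, 36.0 and 35.0 for rel/+ and 34.2 and 29.3 for atf3[A]/+. It ranked above 90.3% of the 11558 genes with a value over 1 in some library. Its high values came from replicate 1 of y w and of atf3[76], and the other 8 libraries lay between 29.3 and 36.6. Aats-thr (2L, 12103733 to 12106894) was at 34.5 and 23.5 FPKM for y w, 32.4 and 25.2 for atf3[76], 30.6 and 28.5 for foxo/+, 31.8 and 28.7 for rel/+ and 25.4 and 21.6 for atf3[A]/+. Replicate 2 of atf3[A]/+ was its lowest library, and the y w pair spanned nearly all the others. Aats-asn (2L, 19129861 to 19131960) was at 32.8 and 25.2 FPKM for y w, 31.1 and 24.4 for atf3[76], 26.7 and 26.9 for foxo/+, 31.4 and 28.0 for rel/+ and 22.7 and 18.2 for atf3[A]/+. Both atf3[A]/+ libraries were below the other 8.

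The 3 least abundant were the mitochondrial genes for proline, leucine and methionine. Aats-pro (3L, 2650160 to 2651834, overlapping CG1246) was at 3.50 and 4.33 FPKM for y w, 3.82 and 3.70 for atf3[76], 2.82 and 3.36 for foxo/+, 4.27 and 4.41 for rel/+ and 3.11 and 3.10 for atf3[A]/+. The rel/+ pair was high and the foxo/+ and atf3[A]/+ pairs were low, with y w replicate 2 among the rel/+ values. Aats-leu (3L, 4825857 to 4829039) was at 3.52 and 3.80 FPKM for y w, 3.58 and 3.77 for atf3[76], 4.46 and 4.14 for foxo/+, 4.98 and 4.28 for rel/+ and 3.71 and 3.53 for atf3[A]/+. The 4 foxo/+ and rel/+ libraries were above the other 6. Aats-met (3R, 10077211 to 10085708) was at 6.10 and 3.84 FPKM for y w, 4.99 and 3.51 for atf3[76], 4.08 and 3.71 for foxo/+, 5.13 and 4.60 for rel/+ and 3.56 and 2.95 for atf3[A]/+. The y w and atf3[76] pairs overlapped each other, and atf3[A]/+ replicate 2 was lowest.

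Of the genes with no value per library here, Aats-lys, Aats-gly and Aats-cys charge lysine, glycine and cysteine in the cytoplasm, with means of 22.7, 19.5 and 10.7 FPKM. The mitochondrial serine gene Aats-ser had a mean of 6.18 FPKM. All 4 had their lowest library in atf3[76] replicate 1 or atf3[A]/+ replicate 2.

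**Figure D1:**
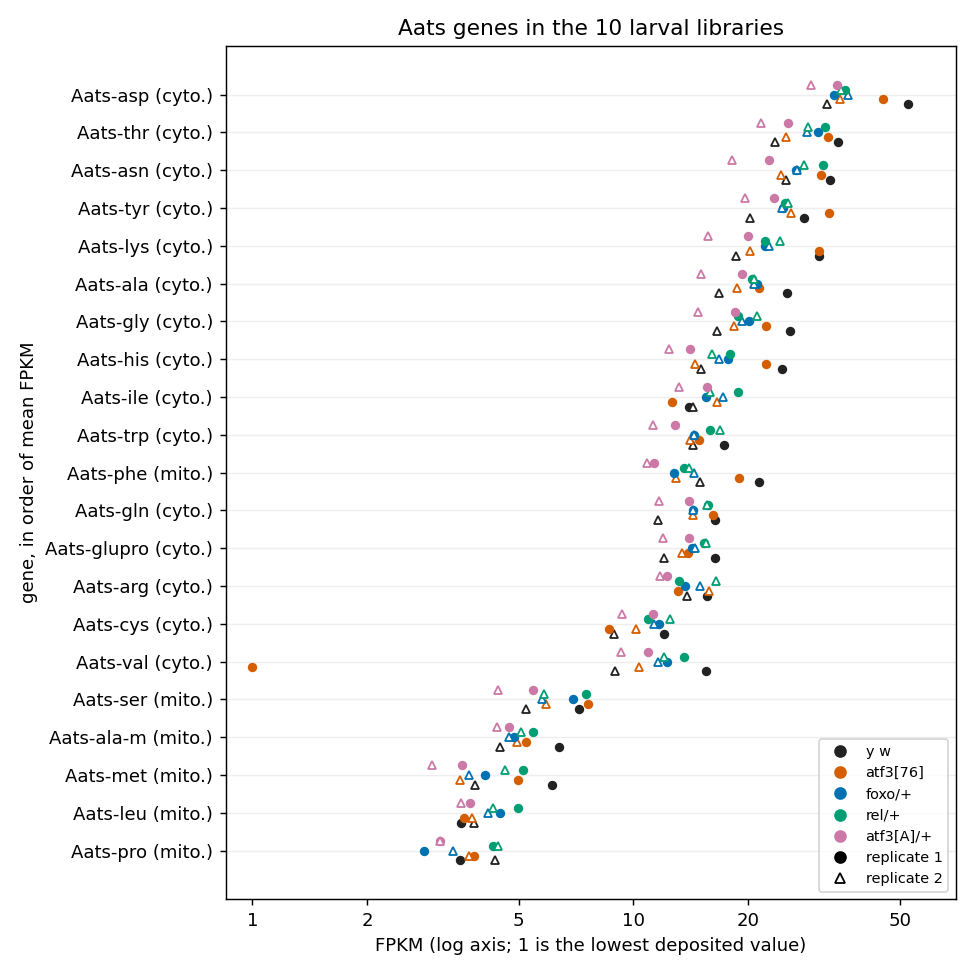
FPKM of the 21 Aats genes in the 10 libraries on a log axis, in order of mean, with the compartment by current symbol in brackets, filled circles for replicate 1 and open triangles for replicate 2. The cytoplasmic genes lie above 5 of the 6 mitochondrial genes, and the lone point at 1 is Aats-val in atf3[76] replicate 1.

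Alanine and proline are the amino acids for which both enzymes carry an Aats symbol. The cytoplasmic proline enzyme, Aats-glupro, also charges glutamate, so only alanine is set out as a pair here. The cytoplasmic Aats-ala (2L, 8378261 to 8381756) was at 25.2 and 16.8 FPKM for y w, 21.3 and 18.7 for atf3[76], 21.1 and 20.7 for foxo/+, 20.5 and 20.7 for rel/+ and 19.3 and 15.0 for atf3[A]/+. The mitochondrial Aats-ala-m (3L, 5139204 to 5142954, overlapping CG10671 and Gen) was at 6.39 and 4.45 FPKM for y w, 5.22 and 4.95 for atf3[76], 4.84 and 4.71 for foxo/+, 5.43 and 5.06 for rel/+ and 4.71 and 4.39 for atf3[A]/+. Both genes had their highest value in y w replicate 1, and their y w pairs overlapped most other groups. The ratio of Aats-ala to Aats-ala-m lay between 3.42 and 4.39 in the 10 libraries. Both foxo/+ libraries, at 4.36 and 4.39, were above all others, which reached at most 4.10. A difference in this ratio was not tested.

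Adding the 14 synthetase genes listed under CG numbers, found by their current symbols, gave 35 in all, of which 20 were cytoplasmic and 15 mitochondrial. The 5 added cytoplasmic genes had a median of 14.8 FPKM and the 9 added mitochondrial genes a median of 4.30. For 12 amino acids a cytoplasmic gene was paired with the mitochondrial gene of the same current symbol plus -m. The cytoplasmic gene was higher in all 10 libraries for 10 of these pairs. Phenylalanine, proline and glutamate were left unpaired, because their cytoplasmic genes have other symbols (alpha-PheRS, beta-PheRS and GluProRS). The ratio of means ran from 1.21 for tryptophan (Aats-trp over CG7441) to 6.88 for isoleucine (Aats-ile over CG5414), with a median of 3.71. Tryptophan and cysteine, at 1.295 (Aats-cys over CG8257), were the closest to equal among the 12 pairs. For unpaired phenylalanine the means were also close, at 14.5 FPKM for the mitochondrial Aats-phe, 14.8 for CG5706 (beta-PheRS) and 16.7 for CG2263 (alpha-PheRS). Among the 12 pairs the exceptions to a higher cytoplasmic gene were 1 library each for tryptophan and valine. For tryptophan the ratio fell to 0.905, and for valine Aats-val was listed at 1.

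**Figure D2:**
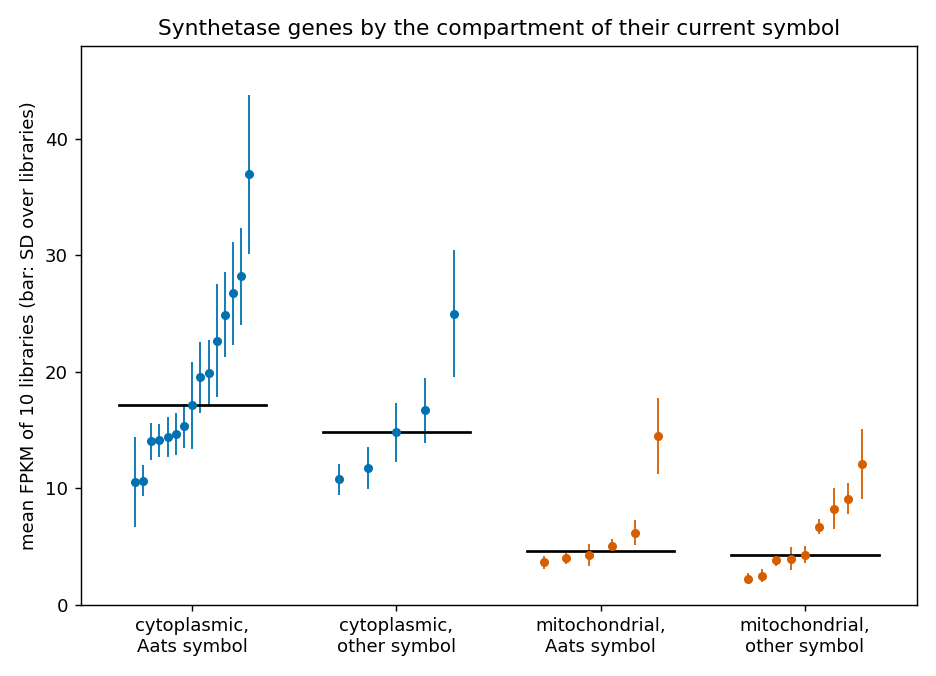
Mean FPKM over 10 libraries of 35 synthetase genes, split by compartment and by whether the deposited symbol begins with Aats-, with bars of SD over libraries and a black line at each median. The medians are 17.1 and 14.8 FPKM for the cytoplasmic sets and 4.63 and 4.30 for the mitochondrial ones.

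No Aats gene passed the test in any comparison. A moderated F test in limma over the 5 genotypes, on log2(FPKM + 1), called 47 of 11558 genes at an adjusted p of 0.05, which was 0.407% of those tested, and 0 of the 21. The lowest adjusted p among the 21 was 0.389, for Aats-pro, and 0 of the 21 had an unadjusted p under 0.05 against 14.7% of genes tested. In each of the 7 comparisons that follow, 0 of the 21 also had an unadjusted limma p under 0.05. The shares of all genes tested with such a p were 3.56%, 18.1%, 25.4% and 7.7% in atf3[76], foxo/+, rel/+ and atf3[A]/+ against y w. They were 5.38%, 7.41% and 8.01% in foxo/+, rel/+ and atf3[A]/+ against atf3[76]. With 2 libraries per group, intervals were wide, and a p that misses the threshold does not show that the levels were equal. For 19 of the 21 the highest library was less than 2 times the lowest, and the median of that ratio was 1.66. Among the 8821 genes above 1 in every library 40.8% stayed under 2 and the median was 2.16.

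The genes with the smallest range of genotype means were Aats-ala-m, Aats-glupro and Aats-gln. Aats-glupro (3R, 19777851 to 19784117) was at 16.4 and 12.02 FPKM for y w, 13.9 and 13.4 for atf3[76], 14.2 and 14.5 for foxo/+, 15.3 and 15.5 for rel/+ and 14.0 and 11.95 for atf3[A]/+. Aats-gln (3R, 21088988 to 21091457, overlapping CG11858), the glutamine enzyme, was at 16.4 and 11.6 FPKM for y w, 16.1 and 14.3 for atf3[76], 14.3 and 14.3 for foxo/+, 15.7 and 15.6 for rel/+ and 14.0 and 11.7 for atf3[A]/+. In both genes the y w libraries were at or near the extremes of all 10.

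In atf3[76] against y w, 0 of 21 genes were called, beside 4 of 10983 genes tested (0.0364%). The median log2 difference of the 21 was -0.042 and that of all genes tested was 0.11. The pairs of libraries overlapped for every one of the 21, where 16.8% of genes tested were higher without overlap and 5.73% lower. Aats-tyr (3L, 16410446 to 16412395), the tyrosine enzyme, was at 27.9 and 20.2 FPKM in y w, beside 32.6 and 25.9 in atf3[76], the largest positive difference at 0.28 (95% interval -0.51 to 1.07). Its pairs overlapped, since atf3[76] replicate 2 was below y w replicate 1. The median of the 21 was 0.16 without y w replicate 1 and 0.047 without atf3[76] replicate 2, so its sign changed when either library was left out.

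Aats-val (2R, 9086355 to 9090216), the cytoplasmic valine enzyme, had the largest range of genotype means. It was at 15.5 and 8.92 FPKM for y w, 1.00 and 10.3 for atf3[76], 12.2 and 11.6 for foxo/+, 13.6 and 12.01 for rel/+ and 10.9 and 9.30 for atf3[A]/+. The value of 1 in atf3[76] replicate 1 is the floor of the tables, and it was the only floor value among the 21 genes in 10 libraries. That library is one of the shallow pair with 4.54% of otherwise well-expressed genes at 1, and the part of this in the value was not tested. In the authors' deposited table Aats-val carries the mark QCNP, for quality control not passed, in the comparison of atf3[76] with y w. The log2 difference there was -1.43 (95% interval -3.72 to 0.87), with a limma adjusted p of 1.00. Against atf3[76], Aats-val differed by 1.44 with foxo/+, 1.53 with rel/+ and 1.22 with atf3[A]/+, with limma adjusted p of 0.656, 0.485 and 0.631, all of which share the same atf3[76] libraries. If atf3[76] replicate 2 was left out, so that the floor value alone stood for atf3[76], it was called in all 3 contrasts. Without atf3[76] replicate 1 the same differences were 0.19, 0.28 and -0.032.

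In foxo/+ against y w, 0 of 21 were called, beside 23 of 11274 (0.204%). The median of the 21 was -0.038 and that of all genes was 0.32. In rel/+ against y w, 0 of 21 were called, beside 61 of 11354 (0.537%), with a median of 0.053 against 0.40 for all genes. All 21 genes were below the all-gene median in both comparisons, which share the y w libraries. Without y w replicate 1 the medians of the 21 were 0.18 in foxo/+ and 0.26 in rel/+, and those of all genes were 0.43 and 0.51. The pairs did not overlap for 2 genes that were higher and 2 lower in foxo/+, where the shares of all genes tested were 48.2% and 9.3%. In rel/+ they did not overlap for 2 higher and 1 lower, where the shares were 56.6% and 8.72%.

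The 2 genes higher in both were Aats-ile and Aats-leu. Aats-ile (3L, 22281761 to 22285918), the cytoplasmic isoleucine enzyme, was at 13.9 and 14.4 FPKM for y w, 12.6 and 16.6 for atf3[76], 15.5 and 17.2 for foxo/+, 18.8 and 15.9 for rel/+ and 15.6 and 13.2 for atf3[A]/+. The y w pair lay below all 4 foxo/+ and rel/+ libraries, and the atf3[76] pair straddled them. The log2 difference of Aats-ile from y w was 0.19 (95% interval -0.33 to 0.72) in foxo/+ and 0.27 (-0.25 to 0.79) in rel/+. For Aats-leu, whose values are given above, it was 0.19 (-0.34 to 0.71) and 0.27 (-0.24 to 0.78). Neither passed the test, and both intervals spanned 0 in each genotype. The sign of all 4 differences depended on scaling, since each was negative after centring and after quantile normalization, between -0.37 and -0.027.

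Aats-phe (2R, 9855851 to 9857407), the mitochondrial phenylalanine enzyme, had the next largest range of genotype means after Aats-val. It was at 21.4 and 14.9 FPKM for y w, 18.9 and 12.9 for atf3[76], 12.8 and 14.4 for foxo/+, 13.6 and 14.0 for rel/+ and 11.3 and 10.8 for atf3[A]/+. Both y w libraries were above all 6 libraries with a second allele or element, and both atf3[A]/+ libraries were below all 8 others. The log2 difference from y w was -0.37 in foxo/+ (95% interval -1.05 to 0.30), -0.35 in rel/+ (-1.01 to 0.30) and -0.64 in atf3[A]/+ (-1.38 to 0.087). The limma adjusted p were 0.421, 0.357 and 0.684.

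**Figure D3:**
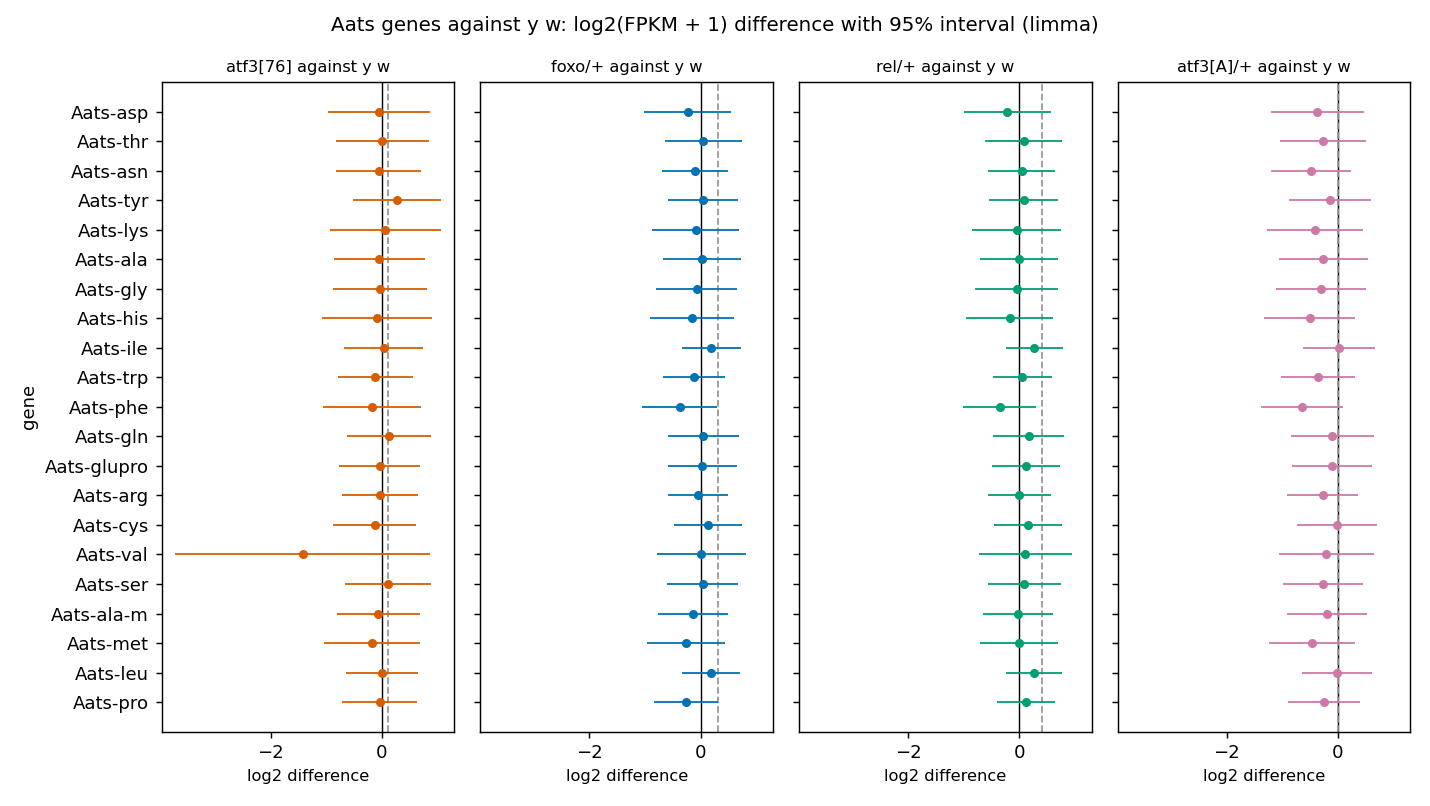
Log2(FPKM + 1) difference of the 21 Aats genes from y w in each of the 4 atf3[76] genotypes, with 95% limma intervals, a solid line at 0 and a dashed line at the median of all genes tested. The dashed line is at 0.32 in foxo/+ and 0.40 in rel/+, to the right of every point, and at 0.0052 in atf3[A]/+.

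In atf3[A]/+ against y w, 0 of 21 were called, beside 41 of 11068 (0.37%). The median of the 21 was -0.27 and that of all genes was 0.0052, and 20 of the 21 lay below 0, with Aats-ile at 0.019. The pairs did not overlap, with atf3[A]/+ lower, for 7 genes: Aats-arg, Aats-asn, Aats-his, Aats-met, Aats-phe, Aats-pro and Aats-trp. The share of all genes tested that were lower without overlap was 17.6%. Aats-his (X, 18409431 to 18414480), the histidine enzyme, was at 24.5 and 15.1 FPKM for y w, 22.3 and 14.5 for atf3[76], 17.7 and 16.8 for foxo/+, 17.9 and 16.1 for rel/+ and 14.1 and 12.4 for atf3[A]/+. The atf3[A]/+ pair was below the other 8 libraries, and the y w and atf3[76] pairs were widely spread. The log2 difference of Aats-his was -0.51 (95% interval -1.33 to 0.31), with a limma adjusted p of 0.757. For Aats-asn it was -0.48 (-1.21 to 0.24) and for Aats-met -0.47 (-1.24 to 0.31), with adjusted p of 0.757 for each.

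The authors' deposited table calls 3 of the 21 down in atf3[A]/+, beside 907 of 14148 records (6.41%). These were Aats-his, Aats-met and Aats-phe, with the authors' fold change at -1.50, -1.53 and -1.64 in the authors' deposited table. How those calls were made is not stated in the labels or files. No other Aats gene is called up or down in any of the authors' deposited tables.

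Against atf3[76], 0 of 21 were called in atf3[A]/+, beside 9 of 11558 (0.0779%). The median of the 21 was -0.25 and that of all genes was -0.10. The pairs did not overlap, with atf3[A]/+ lower, for 12 genes, beside 23.9% of genes tested. Aats-tyr and Aats-asn came nearest to a call, at -0.42 each (95% intervals -0.90 to 0.053 and -0.90 to 0.056), with a limma adjusted p of 0.628. Both atf3[A]/+ libraries were below all 8 others for 5 genes, Aats-arg, Aats-asn, Aats-his, Aats-phe and Aats-trp, beside 7.6% of genes tested. After the FPKM of every library were rescaled to the same sum, an alternative chosen after seeing the data that moves all genes of a library alike, this held for 1 gene, Aats-asn, beside 2.44% of genes tested. Of the 5, Aats-arg (X, 15735795 to 15738169), the arginine enzyme, was at 12.2 and 11.7 FPKM in atf3[A]/+ and between 13.1 and 16.5 in the other 8. Aats-trp (3R, 5089546 to 5092670), the tryptophan enzyme, was at 12.9 and 11.3 FPKM in atf3[A]/+ and between 14.0 and 17.3 in the other 8.

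The median in atf3[A]/+ differed between ways of scaling the libraries. Its libraries had the lowest summed FPKM of all 10, at 292049 and 268803. After rescaling to the same sum, the median of the 21 was -0.035 against y w (all genes 0.21) and -0.014 against atf3[76] (all genes 0.10). Against y w it was -0.28 after centring on the median gene and -0.25 after quantile normalization. Under each of these, 20 of the 21 were below 0 in atf3[A]/+ and in atf3[76], and all 21 in foxo/+ and in rel/+. Against atf3[76] these scalings gave a median of -0.097 and -0.10 in atf3[A]/+. The distance of the median from that of all genes, against y w, was -0.28 as deposited, -0.25 after rescaling, -0.28 after centring and -0.19 after quantile normalization. Without y w replicate 1 the median against y w was -0.026 and that of all genes 0.11.

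Markers of several tissues were also compared between atf3[A]/+ and y w, and only midgut markers were called. Of the midgut markers 4 of 5 tested were below 0, and the digestive lysozymes LysB and LysD, which are near-identical copies and so uncertain one by one, fell by 4.47 and 5.23 on the log2 scale, each with a limma adjusted p of 0.0126. The fall of LysB and LysD was not particular to atf3[A]/+. In atf3[76] both were also called lower against y w, with LysB at 143 and 125 FPKM and LysD at 134 and 158. The summed FPKM of the midgut markers was 5195 and 5617 in atf3[A]/+, below 24937 and 15125 in y w. That sum includes LysB, at 4954 and 4483 in y w, and LysD, at 5482 and 5715. Jon65Aiv, the most abundant midgut marker, overlapped between the genotypes, at 2779 and 3148 FPKM in atf3[A]/+ and 8335 and 2930 in y w. Of the larval salivary gland markers, which encode glue proteins, 6 of 6 were above 0 with a median of 1.51 and 0 called, and their sums of 6577 and 2100 FPKM overlapped those of y w at 2453 and 536. Of the testis markers 5 of 5 tested were below 0 with a median of -0.35 and 0 called. Their sums were 68.0 and 36.7 FPKM in atf3[A]/+ and 99.2 and 59.0 in y w, with 1 of 6 listed at 1 throughout. None was called among the markers of fat body (3 of 6 below 0), body wall muscle (2 of 3), neurons (1 of 2) and hemocytes (0 of 3). In whole larvae fewer cells of a type and less RNA per cell cannot be told apart, and the part of cell makeup in these values was not tested.

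Across libraries the genes varied together as deposited. Y w replicate 1 held the highest value for 13 of the 21 and atf3[A]/+ replicate 2 the lowest for 15. These libraries had the highest and the lowest summed FPKM, and after rescaling to the same sum the counts were 7 and 7. The matching shares of all genes were not computed. Replicate 1 was above replicate 2 for 18 of 21 genes within y w, 16 within atf3[76], 11 within foxo/+, 11 within rel/+ and 21 within atf3[A]/+, beside 74.3%, 45.5%, 70.1%, 41.4% and 81.3% of all genes. The median gap between replicates of y w was a ratio of 1.36 as deposited, larger than the median differences between genotypes. It was 1.11 after rescaling. Over 10 libraries the pairwise correlation of 20 genes, without Aats-val, had a median r of 0.71, and 0.14 after rescaling. These points share libraries, and so share scale and depth, and the values are a description. Aats-ile, Aats-pro and Aats-leu had the lowest median r with the rest, at 0.15, 0.17 and 0.20, and Aats-ile and Aats-leu were most alike to each other at 0.79.

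**Figure D4:**
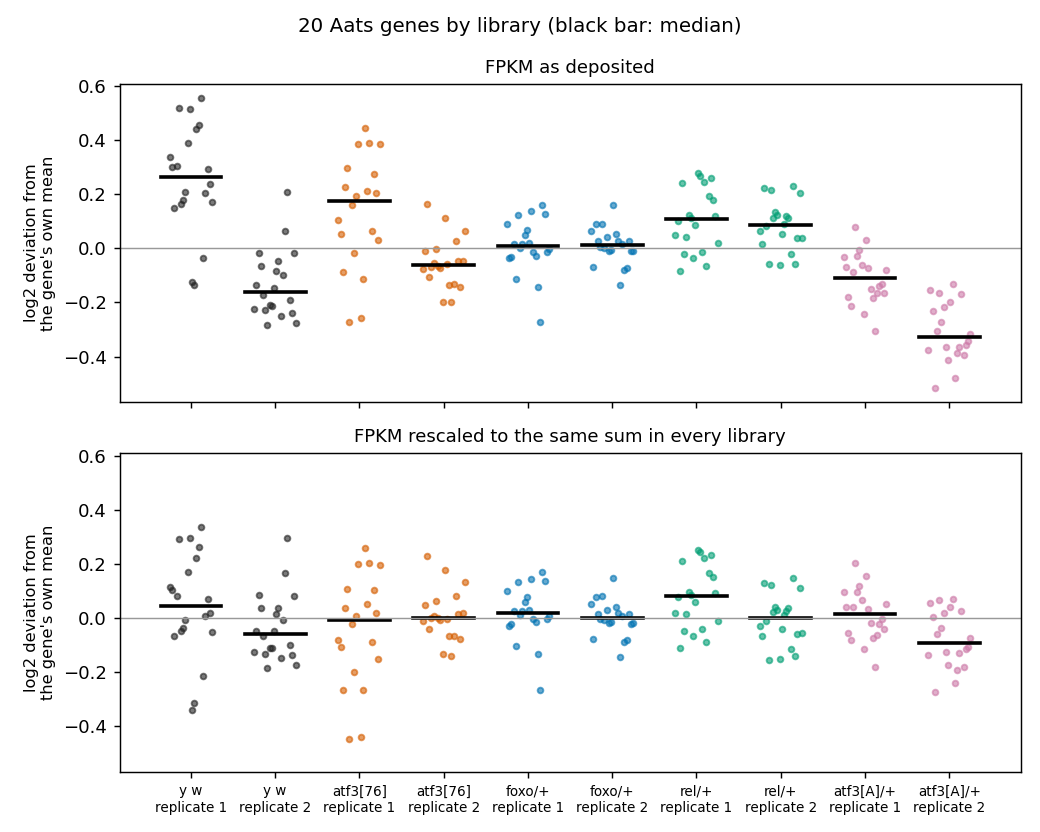
Log2(FPKM + 1) of 20 Aats genes (without Aats-val) in each library as the deviation from the gene's own mean over 10 libraries, as deposited (top) and after rescaling every library to the same summed FPKM (bottom), with a black bar at the median. The medians run from -0.33 in atf3[A]/+ replicate 2 to 0.27 in y w replicate 1 as deposited, and from -0.091 to 0.082 after rescaling.

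In foxo/+ against atf3[76], 0 of 21 were called, beside 6 of 11558 (0.0519%), with a median of -0.038 against 0.16 for all genes. In rel/+ against atf3[76], 0 of 21 were called, beside 10 of 11558 (0.0865%), with a median of 0.043 against 0.24. Both use the same atf3[76] libraries, and leaving out atf3[76] replicate 1 moved the medians of the 21 to 0.095 and 0.18. The pairs of libraries did not overlap for 4 genes that were higher and 3 that were lower in foxo/+, beside 32% and 6.5% of genes tested. They did not overlap for 6 higher and 1 lower in rel/+, beside 44.5% and 5.55%. For Aats-leu the log2 difference was 0.18 (95% interval -0.14 to 0.50) in foxo/+ and 0.26 (-0.059 to 0.59) in rel/+, with limma adjusted p of 0.688 and 0.485. Its pairs did not overlap in either, with the second allele higher. After quantile normalization both differences were negative, at -0.21 each, and after centring that of foxo/+ was -0.011.

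Split by compartment, the median log2 difference from y w was -0.042 for the cytoplasmic and -0.051 for the mitochondrial genes in atf3[76], and -0.27 and -0.26 in atf3[A]/+. In rel/+ the medians were 0.053 and 0.046, and in foxo/+ they were 0.013 and -0.20. The 6 mitochondrial genes ran from -0.37 to 0.19 in foxo/+. The summed FPKM of the mitochondrial genes was between 11.9% and 14.5% of that of the cytoplasmic genes in the 10 libraries. It was 11.9% and 13.0% in atf3[A]/+ and 13.3% and 14.5% in y w. Values of other genotypes fell inside both ranges, with foxo/+ at 12.3% in each library and atf3[76] replicate 1 at 13.9%. Aats-ala-m, the only gene marked as mitochondrial in the deposited symbols, was at -0.061, -0.14, -0.024 and -0.19 from y w in atf3[76], foxo/+, rel/+ and atf3[A]/+.

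None of the 14 other synthetase genes was called in any of the 7 comparisons. Their median log2 difference from y w was -0.028 for atf3[76], 0.15 for foxo/+, 0.26 for rel/+ and -0.18 for atf3[A]/+. In foxo/+ it was -0.028 for the 5 cytoplasmic and 0.26 for the 9 mitochondrial genes, the reverse of the order among the Aats genes. CG4573, the mitochondrial glutamate enzyme, lies 180 bases from Aats-tyr and was at about 2.49 FPKM on average, far below its neighbour at 24.9. It was at 3.03 and 3.34 FPKM in y w against 1.89 and 1.55 in atf3[A]/+. Its atf3[A]/+ pair was below every other library, as was that of 7.6% of genes tested. CG4573 overlaps TMS1 in position and its values lie near the floor of 1, so they are uncertain.

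Genes of neighbouring steps in translation and amino acid use did not pass the test either. No gene was called in any of the 7 comparisons among 7 elongation factors, 15 initiation factors, 11 genes of amino acid response and transport, 13 of amino acid metabolism, 2 mitochondrial translation factors and 7 of tRNA processing found in the tables. Their most abundant members give the scale. Ef1alpha48D, which brings charged tRNA to the ribosome, was at 1021 and 1011 FPKM in y w and between 1195 and 1541 in the other 8 libraries. Thor, the initiation inhibitor 4E-BP, was at 80.1 and 79.3 FPKM for y w, 150 and 131 for atf3[76], 175 and 115 for foxo/+, 203 and 177 for rel/+ and 144 and 82.8 for atf3[A]/+. Both genes were lower in both y w libraries than in all 8 others, as were 5.55% of genes tested, and neither passed the test. Ef1alpha48D overlaps snoRNA:Me28S-A1322 in position.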

How the data were processed

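TopHat 1.3.2, Cufflinks 1.1.0 and build dm3 are named, with no further detail, in the submitters' processing notes. The annotation, strand setting and filters are not stated there or in the files. The authors deposited FPKM per library in 4 tables of 1 genotype beside y w, with a fold change score and a call. The y w values were the same in all 4. All columns of sample values were used (0 left out). Depth is unknown, and relative depth came from the spacing of low values among small nucleolar RNAs of 130 to 160 bp, with a tolerance of 0.03 of a fragment.

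Genes above 1 FPKM in at least 1 library of a fit were tested on log2(FPKM + 1) with limma 3.58.1 (R 4.3.3), a scale that understates changes of low genes. Each genotype was fitted with y w alone. Contrasts with atf3[76] and the moderated F test came from 1 model of 5 groups. The Benjamini-Hochberg adjustment covered all genes tested, with a threshold of 0.05. The fits were checked on simulated data. Alternatives were pseudocounts of 0.1 and 5, other filters, centring, quantile normalization, rescaling to the same sum, a replicate block, 1 model of 5 groups and leaving out libraries.

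The members and gene lists were chosen with earlier results of these data known. Genes given in every library were the 3 highest and 3 lowest in mean, the 3 with the largest and the 3 with the smallest range of genotype means, the alanine pair and any gene at 1. Aats-arg, Aats-his, Aats-ile, Aats-trp, Aats-tyr, CG4573, LysB and LysD were added after their values were seen. Current symbols, from a gene name table and RefSeq of assembly Release 6, matched 21 of 21 identifiers. Coordinates are those of the deposited tables.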

Additional observations from a re-analysis of the deposited data

How the results depend on the processing

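No Aats gene was called under any alternative except Aats-val when atf3[76] replicate 2 was left out, which leaves the floor value alone for atf3[76], assumed to vary like the other groups. It was then called in the 3 contrasts with atf3[76] and in the F test, so their count of the 21 ran from 0 to 1, with limma adjusted p between 0.0159 and 0.0477. Of 403 values of 25 named differences under alternatives, 28 had the other sign, none of them past the threshold. Aats-ile in foxo/+ and rel/+ from y w was -0.15 and -0.14 after centring and -0.050 and -0.027 after quantile normalization. Aats-leu there was -0.16 and -0.14, then -0.37 and -0.37, and from atf3[76] it was -0.011 in foxo/+ after centring and -0.21 in both after quantile normalization. Leaving out 1 library gave Aats-ile in atf3[A]/+ from y w -0.094 to 0.13, Aats-val in atf3[A]/+ from atf3[76] -0.032 to 2.47, and Aats-ala-m from y w -0.28 to 0.16 in atf3[76], -0.36 to 0.084 in foxo/+, -0.24 to 0.20 in rel/+ and -0.41 to 0.025 in atf3[A]/+. Without the shallow libraries Aats-ala-m was 0.13, 0.084, 0.20 and 0.025 in these, Aats-val in atf3[76] from y w 0.19 and Aats-ile in atf3[A]/+ -0.00051. Rescaling gave Aats-ala-m 0.022 in atf3[A]/+. The differences of Aats-phe, Aats-asn, Aats-his, Aats-met and Aats-tyr kept their sign. Over all alternatives that of Aats-phe in atf3[A]/+ from y w ran from -0.89 to -0.40, with limma adjusted p from 0.309 to 0.947.

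The median of the 21 depended on scaling in most comparisons. In atf3[A]/+ from y w it was -0.28 after centring and -0.25 after quantile normalization, close to -0.27 as deposited, and -0.035 after rescaling. Centring gave -0.39 in foxo/+ and -0.35 in rel/+ from y w, and -0.23 and -0.21 from atf3[76]. Quantile normalization gave -0.27 in rel/+ from y w and -0.19 from atf3[76]. Rescaling gave -0.014 in atf3[A]/+ from atf3[76]. Without both shallow libraries the medians from atf3[76] were 0.095 in foxo/+ and 0.18 in rel/+, and atf3[76] against y w, left with 1 library a group, gave 0.13 with no test. Leaving out 1 library at a time gave -0.26 to 0.16, -0.25 to 0.18, -0.14 to 0.26 and -0.49 to -0.026 from y w in atf3[76], foxo/+, rel/+ and atf3[A]/+, and -0.16 to 0.095, -0.042 to 0.18 and -0.39 to -0.14 from atf3[76] in foxo/+, rel/+ and atf3[A]/+. Relative to all genes the median of the 21 stayed below in every alternative for foxo/+ (-0.45 to -0.20), rel/+ (-0.42 to -0.21) and atf3[A]/+ (-0.38 to -0.13) against y w.

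Counts of all genes called depended on most settings. In atf3[76], foxo/+, rel/+ and atf3[A]/+ against y w (4, 23, 61 and 41), genes above 1 in every library gave 51, 225, 314 and 170, and the replicate block gave 34, 42, 170 and 0. A pseudocount of 0.1 gave 0 in atf3[76] and 40 in foxo/+, and a pseudocount of 5 gave 3 in foxo/+ and 19 in atf3[A]/+. No filter gave 120 in rel/+ and 16 in atf3[A]/+. Centring gave 2 and quantile normalization 0 in atf3[76]. Rescaling gave 0, 55 and 76 in atf3[76], foxo/+ and atf3[A]/+. One model of 5 groups gave 35, 45 and 26 in these, and with rescaling 27 in atf3[76] and 60 in foxo/+. Without the shallow libraries the count was 0 in foxo/+, rel/+ and atf3[A]/+. Leaving out 1 library gave 0, 0 to 184, 0 to 236 and 0.

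In foxo/+, rel/+ and atf3[A]/+ against atf3[76] (6, 10 and 9), no filter gave 14 and 21 in foxo/+ and rel/+, a pseudocount of 0.1 gave 11 in foxo/+, genes above 1 in every library gave 4 in rel/+ and 3 in atf3[A]/+, and quantile normalization gave 16 in atf3[A]/+. Without the shallow libraries the counts were 23, 20 and 22, and leaving out 1 library gave 8 to 151, 11 to 169 and 11 to 144. For the F test (47), the replicate block gave 29 and leaving out 1 library 28 to 198. The cause of these shifts was not tested. Deviations of same-numbered libraries correlated between -0.51 and 0.59 across 8821 genes, with 0.57 for y w and atf3[76]. Such mixed values cannot decide whether replicate numbers pair some of the samples. The replicate block called 0 of the 21. Depth limits what 2 libraries a group can show, most of all in y w replicate 1 and atf3[76] replicate 1.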
